A study of Mus musculus with 2 samples.

Results

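The X-linked gene Clcn5 carries a group of microRNA genes in its introns, and their levels were measured in kidneys of mouse embryos. The rule that picks the members uses names and positions and no measured value: 6 microRNA genes assigned to the Clcn5 introns were looked up, and 5 of them (Mir532, Mir188, Mir362, Mir501 and Mir500) have a row among the 1973 microRNA gene rows. Mir660 carries no entry in the annotation used, so it was not analysed here. The tissue was whole kidney of healthy B6NCrl embryos at embryonic day 16.5, with both sexes pooled and no treatment. The 2 libraries are biological replicates 1 and 2 of this 1 group. Replicate 2 was made from 41 embryos, and the labels call replicate 1 a pool without giving its size. Both replicates carry the same donor record, so the spread between them may be partly technical. No contrast between conditions exists in this design.

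Clcn5 encodes an endosomal exchanger of chloride and protons that the proximal tubule of the kidney needs to take up filtered protein, and its loss causes Dent disease in humans. An intronic microRNA can be cut from the transcript of its host by Drosha and then Dicer. Either arm of the hairpin can be kept as the mature microRNA. The seed, bases 2 to 8 of the mature microRNA, does most of the pairing with target messages. In mouse, Mir188 is known from bone marrow, where it shifts stromal cells between bone and fat fates with age. Mouse miR-501-3p is known from neurons, where it acts on a glutamate receptor subunit at synapses. The human counterparts of all members lie together in CLCN5 as well.

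The mature arms are shown here because members with a common seed can pair with the same target sites. In the RefSeq sequences for GRCm38.p6, 9 arms matched the members, both arms for 4 of them and the 3p arm for Mir532. Each is written 5′ to 3′ with its seed in capitals, in the order of the genes along Clcn5.
miR-532-3p: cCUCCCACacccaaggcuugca
miR-188-5p: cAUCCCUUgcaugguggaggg
miR-188-3p: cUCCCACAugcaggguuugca
miR-362-5p: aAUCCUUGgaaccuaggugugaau
miR-362-3p: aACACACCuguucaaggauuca
miR-501-5p: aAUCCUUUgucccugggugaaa
miR-501-3p: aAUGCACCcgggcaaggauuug
miR-500-5p: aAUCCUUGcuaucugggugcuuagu
miR-500-3p: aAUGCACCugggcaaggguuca

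The 9 arms held 7 different seeds, of which 2 were shared between members. The 3p arms of Mir501 and Mir500 had 1 seed in common, and these arms carried the same base at 18 of 22 positions. The 5p arms of Mir362 and Mir500 shared the other, with the same base at 16 of 24 positions. The arms of Mir188 had no seed in common with miR-532-3p, and miR-532-5p was not compared. The 3p arms of Mir188 and Mir532 shared the stretch CUCCCACA, which starts at base 1 of miR-188-3p and at base 2 of miR-532-3p. By seed the 3 downstream genes are therefore linked through Mir500 only, since Mir362 and Mir501 had no seed in common. The 3p arms of the upstream pair resemble each other at an offset. Outside Clcn5, the same seed as miR-362-3p was found in miR-329-3p, and that of miR-188-5p in miR-7061-3p. Mir329, a microRNA gene of chromosome 12, was measured at 76.5 CPM in replicate 2, with 61.3 CPM in replicate 1 (68.9 ± 10.7, SD, n = 2). CPM are counts per 1000000 reads assigned to microRNA genes on their own strand.

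All 5 genes lie on the minus strand of the X chromosome, the strand of Clcn5, inside a single intron of 103648 bases (mm10, chrX:7213011-7316658). It is intron 3 of transcripts Clcn5-202 and Clcn5-204 and intron 2 of Clcn5-203. Read in the direction of Clcn5, Mir532 comes first (chrX:7248402-7248497). Mir188 follows (chrX:7247989-7248056) after a gap of 345 bases. The next gap is the widest, 5942 bases, and leads to Mir362 (chrX:7241982-7242046). Mir501 (chrX:7241243-7241351) comes 630 bases later, and Mir500 (chrX:7237683-7237774) a further 3468 bases on. The 5 genes thus span 10815 bases, as an upstream pair and a downstream group of 3. Of the 5 annotated Clcn5 transcripts, 3 run across them. The other 2, Clcn5-201 and Clcn5-205, start downstream, the nearer of them 48968 bases beyond Mir500, and cannot hold them.

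**Figure D1:**
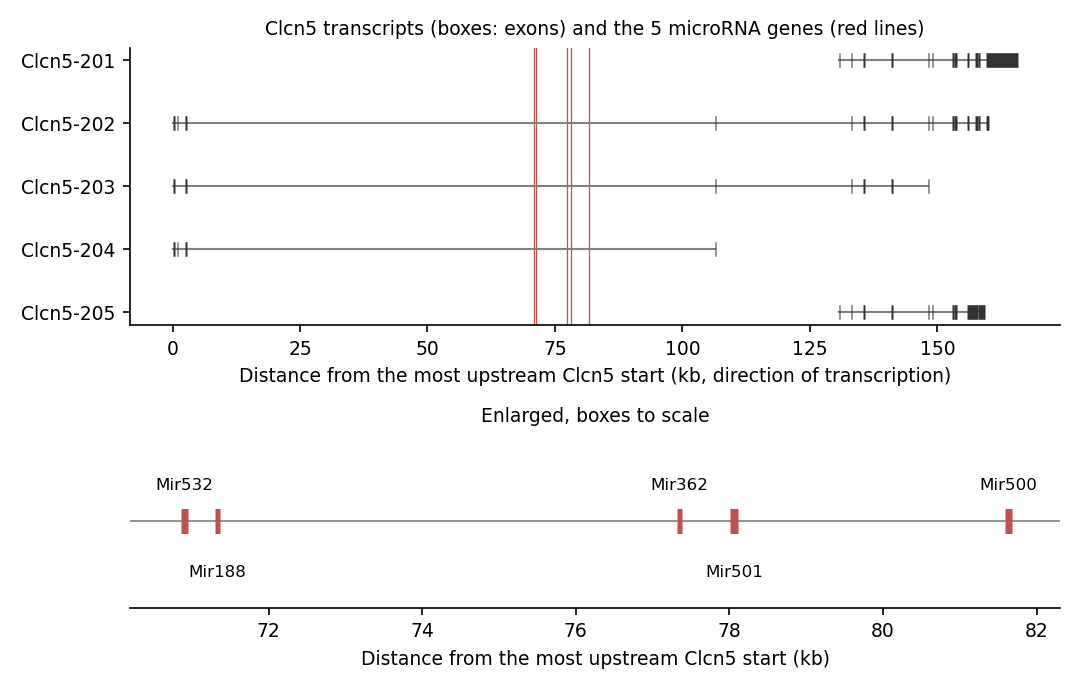
The upper panel draws the 5 annotated Clcn5 transcripts as lines with exons as boxes, against the distance in kb from the most upstream start. The red lines are the microRNA genes, which cross the long intron of 3 transcripts and lie upstream of the other 2. The lower panel enlarges that stretch, with Mir532 and Mir188 close together and Mir362, Mir501 and Mir500 further along.

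The libraries held 7128703 reads on the strand of microRNA genes in replicate 2 and 5317669 in replicate 1, and 387 genes were detected, meaning at 1 CPM or more in both. Rows that name no gene held 51.5% and 55.2% of the reads in the tables of replicates 2 and 1, with 25.3% and 28.0% mapping to several places, and those reads are in no gene row. Over all rows, 387 of 1973 genes were detected. Of kidney-related lists, 5 of 5 genes that mark position along the body axis, 5 of 5 epithelial genes and 6 of 6 nephron genes were detected. So were Mir126a of endothelium, 2 of 2 smooth muscle genes and 5 of 5 adult tubule genes. The body axis genes summed to 229756 CPM in replicate 2 and 256292 CPM in replicate 1. Epithelial genes summed to 26770 and 26285 CPM in replicates 2 and 1, and nephron genes to 45638 and 38266 CPM. Mir126a stood at 51554 and 52632 CPM, and smooth muscle genes summed to 36005 and 25617 CPM. The adult tubule genes were far lower and summed to 518 CPM in replicate 2 and 493 CPM in replicate 1. Erythroid genes were detected too (2 of 2, 422 CPM in replicate 2 and 303 CPM in replicate 1 summed), as was liver Mir122 (171 and 210.1 CPM). Both measured leukocyte genes were detected (423 and 351 CPM summed in replicates 2 and 1). Of 4 measured striated muscle genes 1 was detected, Mir206 (287 and 267 CPM). Of 5 measured neuronal genes 1 was detected, and Mir124a-2 and Mir124a-3 had no read. These neuronal genes, and the striated muscle genes that were not detected, are numbered copies of Mir124a, Mir9, Mir1a and Mir133a. A read that fits more than 1 copy equally well would be counted for none of them, and that loss was not tested. Low or missing counts for these genes therefore do not show that their microRNAs were absent. In whole kidneys, fewer cells of a type and less microRNA per cell cannot be told apart, and the cells that hold the Clcn5 microRNAs are not resolved.

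The 5 microRNA genes of the Clcn5 intron were all detected, where 387 of the 1973 gene rows were. They ranked from 81 to 203 among those 387 genes. Together they held 15436 reads in replicate 2 and 10901 in replicate 1, which is 2165 and 2050.0 CPM (2108 ± 81.6, SD, n = 2) or 0.211% ± 0.00816 of the microRNA reads. No read lay on the opposite strand of any of the 5 genes in either library. The limit that a count of 0 allows, 3 reads, is 0.421 CPM in replicate 2 and 0.564 CPM in replicate 1. Levels are compared without dividing by gene length, because reads of this size class (under 30 nucleotides) are about as long as 1 arm (21 to 25 bases here), and a count adds up both arms of a hairpin. Intervals given with counts are exact 95% intervals and cover counting error only.

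Mir532, the first gene of the group, was the most abundant. It had 7159 reads or 1004 CPM in replicate 2 (95% interval 981 to 1028) and 5224 reads or 982 CPM in replicate 1 (956 to 1009), a mean of 993 ± 15.5 CPM (SD, n = 2). It ranked 81 among the 387 detected genes. Mir188, its near neighbour, had 4614 reads or 647 CPM in replicate 2 (629 to 666) and 3219 reads or 605 CPM in replicate 1 (585 to 627), a mean of 626 ± 29.6 CPM and rank 97. The upstream pair thus led in both libraries and together took 76.3% of the reads of the 5 genes in replicate 2 and 77.5% in replicate 1.

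In the downstream group the middle gene was the highest. Mir501 had 2413 reads or 338 CPM in replicate 2 (325 to 352) and 1728 reads or 325 CPM in replicate 1 (310 to 341), a mean of 332 ± 9.57 CPM and rank 118. Mir500, with which it shares the 3p seed, had 760 reads or 107 CPM in replicate 2 (99.2 to 114) and 493 reads or 92.7 CPM in replicate 1 (84.7 to 101), a mean of 99.7 ± 9.83 CPM and rank 182. Mir362 was the lowest, with 490 reads or 68.7 CPM in replicate 2 (62.8 to 75.1) and 237 reads or 44.6 CPM in replicate 1 (39.1 to 50.6), a mean of 56.7 ± 17.1 CPM and rank 203. It was the gene of the group whose libraries lay furthest apart for its level.

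**Figure D2:**
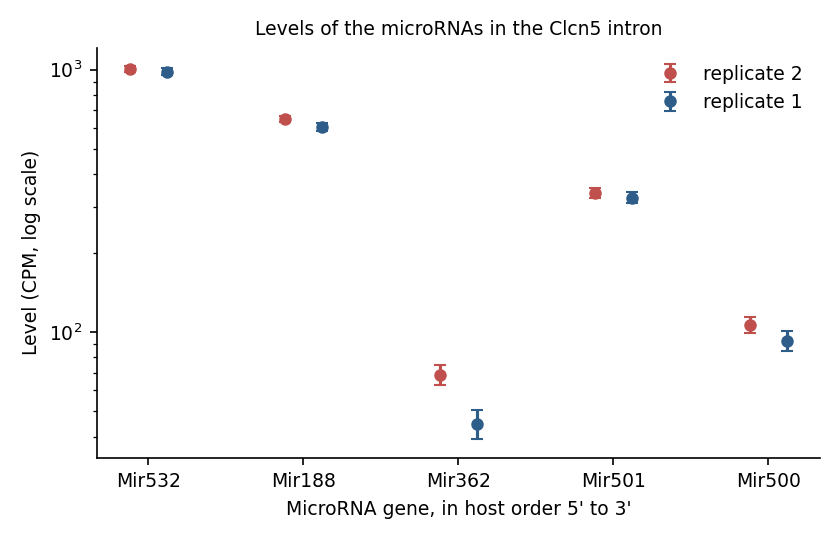
The plot gives the level of each gene in CPM on a log axis, in the order along the host, with a point for each library and bars for exact 95% counting intervals. Mir532 and Mir188 stand highest at 993 and 626 CPM on average, Mir362 lowest at 56.7 CPM, and its libraries are the only pair with a wide gap.

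The order of levels was Mir532, Mir188, Mir501, Mir500 and Mir362 in both libraries, so levels did not follow position step by step: Mir362 lies between Mir188 and Mir501 on the host and was below both. Differences between genes were set against the spread between libraries. The pooled replicate SD of log2(CPM + 1) was 0.22 over the 181 genes that averaged 100 CPM or more, so that means 1.34-fold or more apart exceeded that spread at the 95% level. No p-value is given, since 2 libraries allow none under 0.5 in an exact sign-flip test. All 10 pairs of members lay further apart than 1.34-fold. Mir500 and Mir362 averaged under 100 CPM, so the pairs with them were set against a spread of more abundant genes. Over the 277 genes at 10 CPM or more the limit was 1.38-fold, and all 10 pairs exceeded it. For Mir362, whose libraries lay furthest apart, either limit may be too narrow.

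The closest pair was the upstream one. Mir532 exceeded Mir188 1.59-fold, with 1.55-fold in replicate 2 and 1.62-fold in replicate 1. Mir188 exceeded Mir501 1.88-fold, and Mir501 exceeded Mir500 3.31-fold although they share the 3p seed. Mir500 exceeded Mir362 1.78-fold, with 1.54-fold in replicate 2 and 2.06-fold in replicate 1. Between Mir501 and Mir362, which lie 630 bases apart, the fold was 5.90, and between the extremes Mir532 and Mir362 it was 17.6. That last fold was 14.4 in replicate 2 and 21.6 in replicate 1, a wider gap than for the pairs without Mir362, whose folds in the libraries differed by 1.12-fold at most.

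The hairpins of Mir362 and Mir501 are shown because these neighbours lie 630 bases apart and differ 5.90-fold. They are written 5′ to 3′ with both mature arms in capitals.
Mir362: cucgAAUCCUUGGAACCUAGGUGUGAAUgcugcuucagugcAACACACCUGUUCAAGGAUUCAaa
Mir501: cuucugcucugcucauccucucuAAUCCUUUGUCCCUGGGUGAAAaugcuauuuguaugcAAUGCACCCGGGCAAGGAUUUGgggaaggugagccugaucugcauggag

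The annotated genes differ in length as well, 65 bases for Mir362 and 109 for Mir501, so much less flanking sequence is annotated around the arms of Mir362. Both arms of each gene lie within the annotated sequence, and whether its length bears on the counts was not tested. Reads that match several places are left out of the counts, so sequence shared with other hairpins would lower a gene's level. The longest stretch shared by any member with another microRNA hairpin of the RefSeq table was 14 bases, between Mir501 and Mir500. For Mir532 the longest was 12 bases, for Mir188 and Mir362 11 bases each. These are exact stretches and do not cover near matches, such as the 3p arms of Mir501 and Mir500 with the same base at 18 of 22 positions. Loss of reads through near matches, and matches elsewhere in the genome, were not tested.

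The share of each gene in the reads of the 5 was compared between libraries, since it does not depend on how the libraries are scaled. Mir188 took 29.9% in replicate 2 (95% interval 29.2 to 30.6) and 29.5% in replicate 1 (28.7 to 30.4). Mir501 took 15.6% (15.1 to 16.2) and 15.9% (15.2 to 16.6) in replicates 2 and 1. These shares agreed within counting error. Mir532 took 46.4% in replicate 2 (45.6 to 47.2) and 47.9% in replicate 1 (47.0 to 48.9). Mir500 took 4.92% (4.59 to 5.28) and 4.52% (4.14 to 4.93). For both genes the intervals overlap in part, which does not exclude a difference beyond counting error. Mir362 took 3.17% in replicate 2 (2.90 to 3.46) and 2.17% in replicate 1 (1.91 to 2.47). On this scale Mir362 was the one member whose intervals did not overlap. In CPM, the intervals of Mir188 stayed apart as well (629 to 666 in replicate 2 and 585 to 627 in replicate 1). How many of all genes have intervals that stay apart was not counted.

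**Figure D3:**
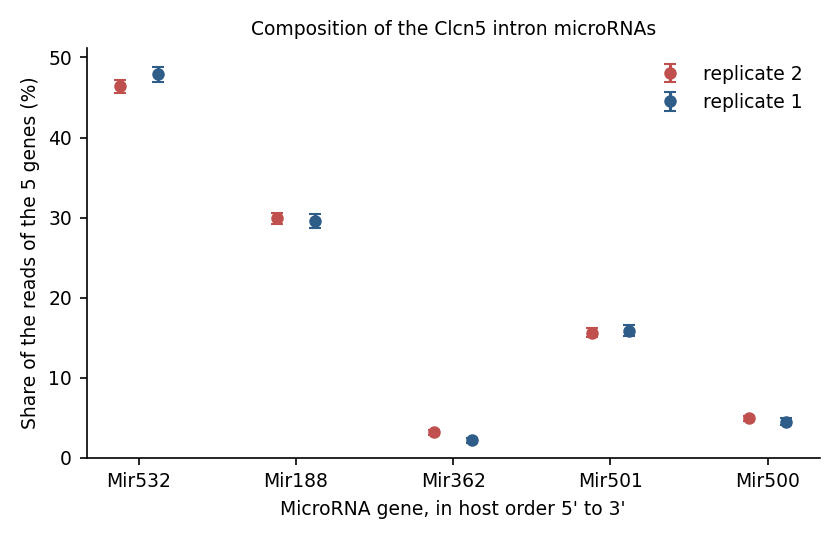
The plot gives each gene's share, in percent, of the reads of the 5 genes in each library, with exact 95% binomial intervals as bars. Mir532 takes 46.4% and 47.9% in replicates 2 and 1, and only for Mir362, at 3.17% and 2.17%, do the intervals stay apart.

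The members other than Mir362 differed little between libraries. TMM scaling sets the libraries to a common level and shifted every log2 ratio by -0.14 against scaling to library totals. With TMM, the log2 ratio of replicate 2 to replicate 1 was -0.11 for Mir532 (95% counting interval -0.16 to -0.06). It was -0.05 for Mir188 (-0.11 to 0.02), -0.08 for Mir501 (-0.17 to 0.0057) and 0.06 for Mir500 (-0.11 to 0.22). The interval of Mir532 lies wholly on the negative side. On library totals these 4 log2 ratios were 0.032, 0.10, 0.059 and 0.20, so those of Mir532, Mir188 and Mir501 change sign with the scaling. On totals the intervals of Mir188 (0.031 to 0.16) and Mir500 (0.036 to 0.37) lie wholly on the positive side. Mir362 had a log2 ratio of 0.48 with TMM (95% counting interval 0.26 to 0.71), which is 1.40-fold. On library totals it was 0.63 (0.40 to 0.85) or 1.54-fold.

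None of the 5 members reached 1.5-fold with TMM, where 22.4% of the 455 genes with at least 10 reads over both libraries did. Low counts weigh on that share. Among the 290 genes with at least 100 reads, which include all 5 members, it was 4.48%. The lack of a member past 1.5-fold therefore does not set the group apart. On library totals 1 of 5 members, Mir362, passed 1.5-fold, against 24.2% of the 455 genes and 7.59% of the 290 genes. The median log2 ratio was -0.05 over the members and 0.02 over the 455 genes with TMM, and 0.10 and 0.16 on library totals. With 1 library on each side, these ratios compare the 2 samples and have no replicate check.

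**Figure D4:**
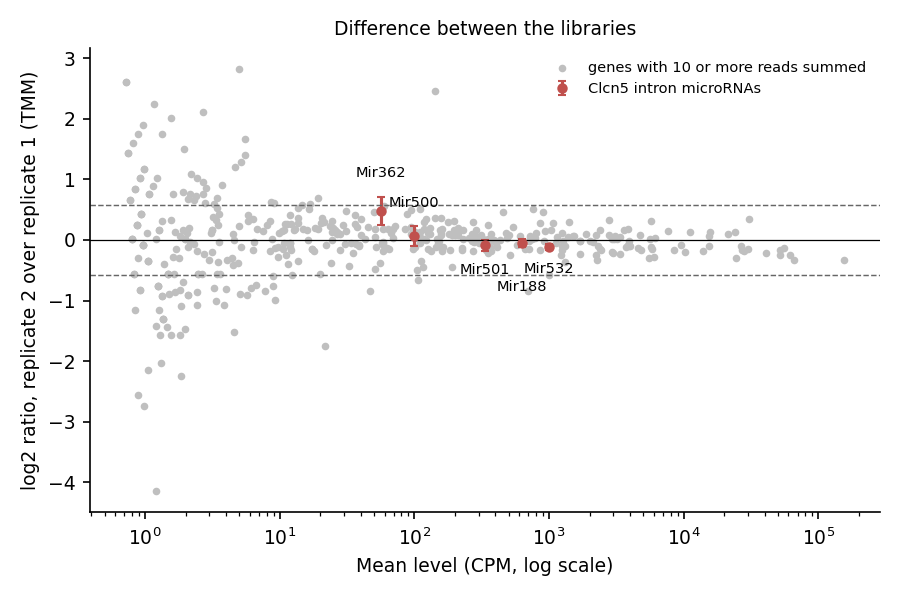
The plot sets the log2 ratio of replicate 2 to replicate 1 (TMM scaling) against the mean level in CPM on a log axis for the 454 of 455 genes that had reads in both libraries, in grey. The Clcn5 intron microRNAs are in red with 95% counting intervals, and dashed lines mark 1.5-fold. Mir362, at 0.48, is the member furthest from 0 and lies inside the dashed lines.

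Among the other detected genes, the nearest in level to Mir532 over the 2 libraries were Mir200a, an epithelial microRNA gene (962 CPM in replicate 2 and 883 CPM in replicate 1), and Mir431 (1147 and 932 CPM). Nearest to Mir362 were Mir3102 (74.2 CPM in replicate 2 and 45.7 CPM in replicate 1) and Mir199a-2 (65.1 and 51.7 CPM). Their distances from the member, Euclidean on log2(CPM + 1), were 0.17, 0.21, 0.11 and 0.22. With 2 libraries this measures likeness in level and no pattern across conditions.

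The X chromosome offers other microRNA genes for comparison. Of 120 X-linked rows 42 were detected, and the Clcn5 microRNAs held 2.93% of the X-linked microRNA reads in replicate 2 and 2.79% in replicate 1. By mean level Mir532 was the 7th most abundant X-linked gene, Mir188 the 10th, Mir501 the 16th, Mir500 the 25th and Mir362 the 26th. Mir361 in the Chm intron stood 2.32-fold above Mir532, beyond the replicate spread. Mir503 and Mir542 of the Mir322 cluster lay between Mir532 and Mir188. Neither Mir532 over Mir503 (1.18-fold) nor Mir542 over Mir188 (1.13-fold) exceeded that spread, nor did Mir188 over Mir374b, the next gene below it (1.17-fold). The same held for the neighbours of Mir501, which were Mir106a above (1.07-fold) and Mir221 below (1.25-fold). Mir672 stood 1.21-fold above Mir500, within the spread. Mir362 stood 1.09-fold above Mir505, also within it, but 1.27-fold above in replicate 2 and at 0.942 of its level in replicate 1, so that the libraries disagree on the order of this pair.

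**Figure D5:**
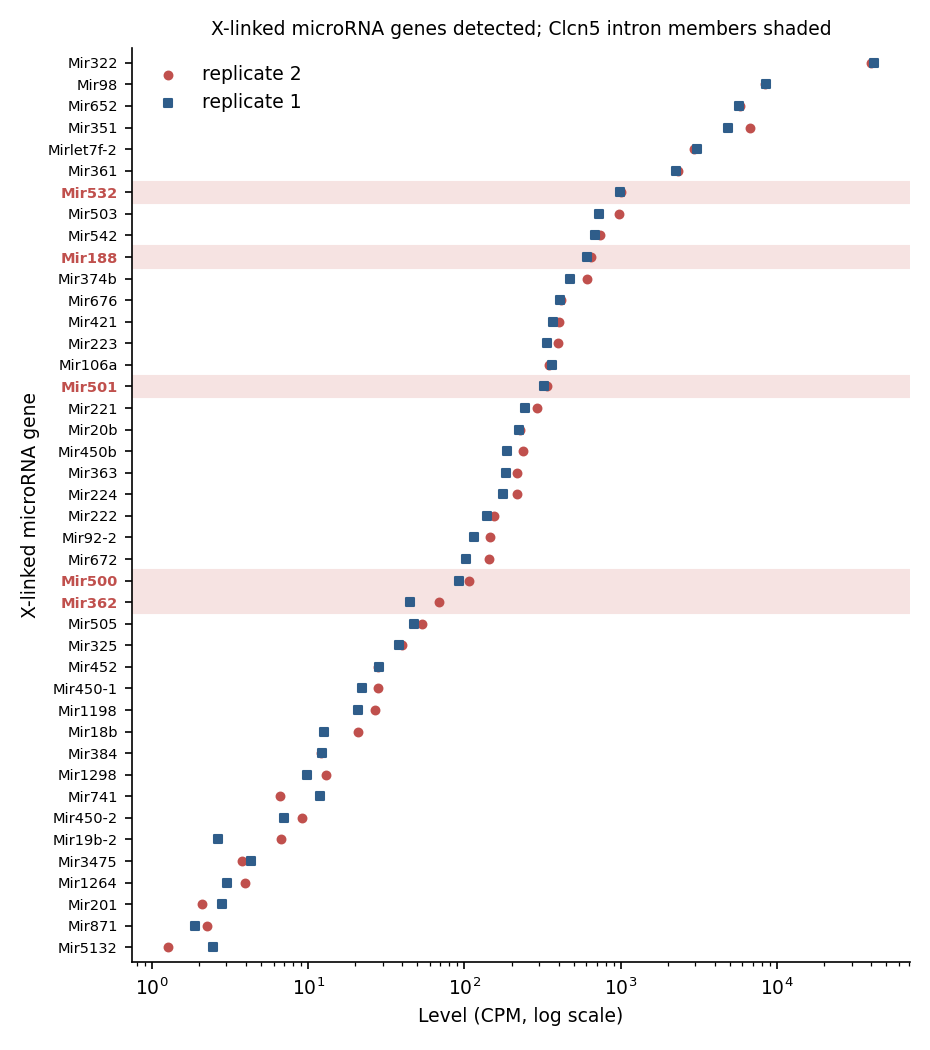
The plot ranks the 42 detected X-linked microRNA genes by mean level, with a point for each library on a log axis in CPM. The 5 shaded members lie from place 7 (Mir532) to place 26 (Mir362) of the 42.

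Summed, the Clcn5 microRNAs were set against other X-linked groups by the log2 ratio of summed CPM, averaged over the libraries. They stood 2.26-fold above the Mir106a cluster (932 ± 43.6 CPM, SD, n = 2), a paralogue of the proliferation-linked Mir17 cluster, and 5.11-fold above Mir221 and Mir222 (413 ± 42.8 CPM). The Mir322 cluster stood 23.0-fold above them (48523 ± 48.3 CPM). Among the hosts of intronic microRNAs on the X chromosome, Huwe1 with Mir98 and Mirlet7f-2 stood 5.44-fold above the Clcn5 group and Tmem164 with Mir652 stood 2.73-fold above it. Chm with Mir361 (2306 ± 51.1 CPM) stood 1.09-fold above it, within the 1.34-fold set for single genes. The Clcn5 group stood 5.14-fold above Mir676 in Eda and 9.42-fold above Mir224 and Mir452 in Gabre. It stood 135-fold above the 5 microRNAs in Htr2c, the gene of a serotonin receptor of neurons, which summed to 15.7 ± 3.12 CPM. The Mir106a cluster and Mirlet7f-2 have near copies elsewhere in the genome, so their sums, and the folds that involve them, are uncertain.

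A wide range of levels within 1 host was not particular to Clcn5 in these libraries. Within protein-coding transcripts on the same strand, 4 hosts held 3 or more detected microRNA genes. The highest member exceeded the lowest 17.6-fold in Clcn5 and 16.8-fold in Ttll10, whose annotated transcript spans Mir429, Mir200b and Mir200a. It was 15.7-fold in Mcm7, between Mir93 and Mir25, which overlap an annotated exon of some Mcm7 transcript as well. In Sfmbt2 the range over 10 detected genes was 317-fold, with members that share sequence and so may be undercounted.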

How the data were processed

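Small RNA of embryonic kidneys was sequenced in 2 libraries of 1 group. The values deposited by the authors are raw counts of reads for each microRNA gene, made on mm10 with annotation M4, per the file headers in the accompanying notes. No source used here names the aligner, counter or trimming. In all 1973 gene rows the first count equals the sum of the other 2, taken as sense and antisense to the gene, and sense reads were used. The 4 rows that name no gene were kept out of library sizes. Symbols, positions and hosts came from GENCODE M21 (GRCm38, also called mm10) by Ensembl identifier, which 1894 rows matched and 79 did not. CPM used library totals. Pairs of genes were compared on log2(CPM + 1). Ratios between libraries used edgeR 4.0.16 TMM factors, and DESeq2 1.42.0 size factors as an alternative, in R 4.3.3. No count test was run, since 1 group offers no contrast, and the ratio step was tested on simulated data. Poisson and binomial intervals were exact (scipy 1.17.1). Alternatives were other library sizes, strands, pseudocounts and filters, and leaving out each library. Named genes are the members, genes sharing a seed with them, the 2 nearest in level to the highest and lowest member, and X-linked lists. Of those lists Mir374 matched no symbol, and Mir374b, which has a row, was not on them. The rule for the members uses no measured value, but the members and lists were chosen with earlier results of these data known.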

Additional observations from a re-analysis of the deposited data

How the results depend on the processing

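Of 62 alternative values that keep both libraries, 44 stayed within the error of the value as reported, 18 moved beyond it and 0 reversed a difference past its threshold. Another 34 leave out 1 of 2 libraries, and for levels and shares these lie within 1 SD of the mean by construction, so they are given as ranges only. With all reads of the tables as library size, the summed level was 984 CPM, and Mir532, Mir188, Mir362, Mir501 and Mir500 stood at 463, 292, 26.6, 155 and 46.6 CPM, in the same order. Counting either strand gave Mir532 972 CPM. On library totals the log2 ratios of replicate 2 to replicate 1 were 0.032 for Mir532, 0.10 for Mir188 and 0.059 for Mir501, and the members' median was 0.10. The number of genes 1.5-fold or more apart was 102 as reported, 300.0 of 710 with at least 1 read and 13 of 290 with at least 100 reads, and these filters differ in the genes counted. All 10 pairs stayed beyond the replicate spread at the other pseudocounts and with the spread taken over genes at 10 CPM or more. With either library left out, the summed level ranged from 2050.0 to 2165 CPM, Mir532 from 982 to 1004, Mir188 from 605 to 647, Mir362 from 44.6 to 68.7, Mir501 from 325 to 338 and Mir500 from 92.7 to 107 CPM, and the fold of Mir532 over Mir362 from 14.4 to 21.6. Ratios between libraries have no value with a library left out. Counting either strand lowered the members by 4 to 11 places among detected genes. No paired analysis was possible because the series has 1 group. Depth limits Mir362 most, with 490 and 237 reads in replicates 2 and 1.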
